A study of Mus musculus with 12 samples.

Results

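The bone morphogenetic protein (BMP) pathway and the Id genes were followed in mouse airway organoids after femtosecond laser ablation. The 10 genes were taken by name from the 55401 genes of the expression table: the ligand genes Bmp2, Bmp4 and Bmp7, the receptor genes Bmpr1a and Bmpr2, the antagonist gene Fst, and Id1, Id2, Id3 and Id4. The organoids were grown from airway cells of adult C57BL/6J mice and carried, in both groups, a Histone2A-mCherry reporter behind a p63 promoter taken from human DNA. Each dish held 45 organoids, all moved to FluoroBrite DMEM without supplements 1 h before treatment. In the 6 ablation dishes, 10 neighbouring cells of every organoid were destroyed with the laser, no cell was ablated in the 6 control dishes, and RNA was collected 4.5 h later. The RNA came from whole organoids, ablated site and remaining cells together. Dishes with the same number (1, 3, 4, 5, 6 and 7) shared passage, culture day and date and form 6 pairs. Pairs 1, 3 and 5 were library set 1, and pairs 4, 6 and 7 library set 2. Passage was P2+14 in pairs 1 and 3, P2+15 in pairs 4 and 5 and P2+16 in pairs 6 and 7. It thus ran partly along with the library set. The titles of control dishes 4, 6 and 7 carry the word for ablation, although the treatment field lists control. The same titles hold a C after the dish number, as those of control dishes 1, 3 and 5 do and those of ablation dishes do not. Control dishes 4, 6 and 7 were used as controls, and the values of library set 1 are those without them.

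BMPs are secreted ligands that bring type I receptors such as BMPR1A together with the type II receptor BMPR2. The receptors phosphorylate SMAD1, SMAD5 and SMAD9, which enter the nucleus with SMAD4. Id genes are widely used target genes of this signal, and their proteins lack a DNA-binding domain and hold back basic helix-loop-helix factors. Follistatin, the product of Fst, binds activins and, less tightly, several BMPs outside the cell. Before the switch of medium the organoids had been fed supernatant of the L-WRN line, which secretes the BMP antagonist noggin together with Wnt3a and R-spondin.

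Normalized counts are read counts divided by a size factor for each library. They summed to 27297950 to 28504390 per library, and the reads recovered from 9 of the 12 libraries to 23631212 to 29775699. All 5 basal cell markers of a list were above the minimum of 10 normalized counts in at least 6 libraries. Their summed level was 476553 to 617307 after ablation and 472925 to 598845 in the control. The sum is mostly keratin RNA, and Trp63, the basal cell factor p63, had 8400 to 11436 counts after ablation (median 9873) and 6443 to 8928 in control dishes (median 7645). The log2 change of Trp63 was 0.39 (adjusted p = 0.187 from limma with the library set and 0.00825 with the pair). Its part in the values of the members was not tested. The 3 luminal markers, all above the minimum, summed to 43223 to 53060 after ablation and 42646 to 53268 in the control. Of the secretory markers, Cyp2f2 was high and Scgb1a1 near 0. Of the multiciliated markers only Tubb4b passed the minimum, with Foxj1 and Dnah5 below it. Fibroblast markers summed to 17.98 to 42.2 counts after ablation and 17.8 to 48.3 in the control, with 1 of 6 above the minimum. Smooth muscle markers summed to at most 5.84, and immune markers to 115 to 147 after ablation and 102 to 173 in the control. The immune sum was mostly Cd68, at a mean of 122 counts, with Ptprc at 12.8 and Cd3e at 0.0812. Endothelial markers summed to 2.96 to 8.77 after ablation and 4.67 to 14.3 in the control, with Kdr at 0 in all libraries. Alveolar markers summed to at most 2.34, with Sftpc and Sftpb at 0 in all libraries.

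Id1, Id2, Id3 and Id4 encode near relatives, yet their levels differed widely in these organoids. The promoters of Id2, Id3 and Id4 are shown as the promoters of family members at a middle, a near-zero and a high level. Id1 was not in the promoter table used, nor were Bmp2, Bmp7 and Fst. Each sequence is from RefSeq (GRCm38.p6), runs 5′ to 3′ on the gene's strand and covers 250 bases before to 50 after the listed start. Capitals mark GTCT, the core of the Smad binding element, and GGCGCC, a GC-rich Smad element, on either strand. The windows lie at chr12:25096043-25096342 (minus strand, Id2), chr4:136143572-136143871 (plus strand, Id3) and chr13:48260866-48261165 (plus strand, Id4). The RefSeq starts lie inside the Id2 and Id3 genes as the authors' annotation places them and upstream of its Id4 gene.
Id2: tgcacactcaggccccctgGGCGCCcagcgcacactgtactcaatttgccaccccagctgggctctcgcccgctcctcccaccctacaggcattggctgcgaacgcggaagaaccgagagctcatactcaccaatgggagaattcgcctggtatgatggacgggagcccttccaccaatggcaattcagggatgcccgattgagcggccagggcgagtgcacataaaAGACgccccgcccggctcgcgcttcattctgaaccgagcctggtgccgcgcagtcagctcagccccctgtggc
Id3: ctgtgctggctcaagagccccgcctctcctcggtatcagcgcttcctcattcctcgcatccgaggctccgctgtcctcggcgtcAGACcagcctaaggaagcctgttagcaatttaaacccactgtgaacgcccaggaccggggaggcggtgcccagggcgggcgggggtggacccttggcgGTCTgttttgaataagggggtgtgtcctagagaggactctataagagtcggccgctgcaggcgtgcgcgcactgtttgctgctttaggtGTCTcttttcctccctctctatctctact
Id4: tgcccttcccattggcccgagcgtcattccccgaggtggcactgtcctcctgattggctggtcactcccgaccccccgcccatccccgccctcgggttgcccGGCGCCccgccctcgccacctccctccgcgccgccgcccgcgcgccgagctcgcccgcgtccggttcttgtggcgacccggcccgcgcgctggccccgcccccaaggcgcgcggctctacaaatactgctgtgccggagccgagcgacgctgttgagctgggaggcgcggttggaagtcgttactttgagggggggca
GTCT matched 1 time in the Id2 window, 3 times in that of Id3 and 0 times in that of Id4. GGCGCC matched 1 time in Id2 and in Id4 and 0 times in Id3. Of all 32851 promoters of the table, 88.0% hold GTCT and 11.9% hold GGCGCC, so the shorter motif says little about any single gene. TGACGTCA, the cAMP response element, matched in none of these windows and in 1.79% of all promoters. The E-box CAGCTG matched 1 time in Id2 and in 16.3% of all promoters. The Id4 window was the richest of the 3 in G and C, at 73.3% with 39 CpG, against 63.3% with 21 CpG in Id2 and 60.0% with 19 CpG in Id3. These are matches of letters, and binding was not measured.

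Levels of the genes were compared per kilobase of exon, since the genes differ in length. Id4 was the highest of the 10, at 760 ± 141 normalized counts per kb (SD, n = 12 libraries), followed by Bmpr1a at 658 ± 43.1 per kb. Id4 was above Bmpr1a in 8 of 12 libraries and their ranges overlapped, so this order did not hold library by library. Id1, at 367 ± 50.6 per kb, and Id2, at 339 ± 43.0 per kb, could not be ranked, as Id1 was above Id2 in 6 of 12 libraries. Fst followed at 273 ± 66.4, Bmp7 at 206 ± 43.5 and Bmpr2 at 156 ± 14.4 counts per kb. Fst was above Bmp7 in 10 of 12 libraries and Bmp7 above Bmpr2 in 10 of 12.

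A clear step separated these genes from the last 3. Bmp4, a ligand gene that also marks mesenchyme in many organs, was at 18.3 ± 6.49 counts per kb, Bmp2 at 7.86 ± 2.54 and Id3 at 2.08 ± 1.02. Bmpr1a lay above Id1, and Bmpr2 above Bmp4, without overlap of the 12 libraries. Among the 13792 genes tested, the mean level per kb of Id4 was at the percentile 85.7 and that of Bmpr1a at 83.0. Bmp4 was at 14.8 and Bmp2 at 6.7. Set against the same genes, the level of Id3, itself under the count minimum, was at 0.8.

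**Figure D1:**
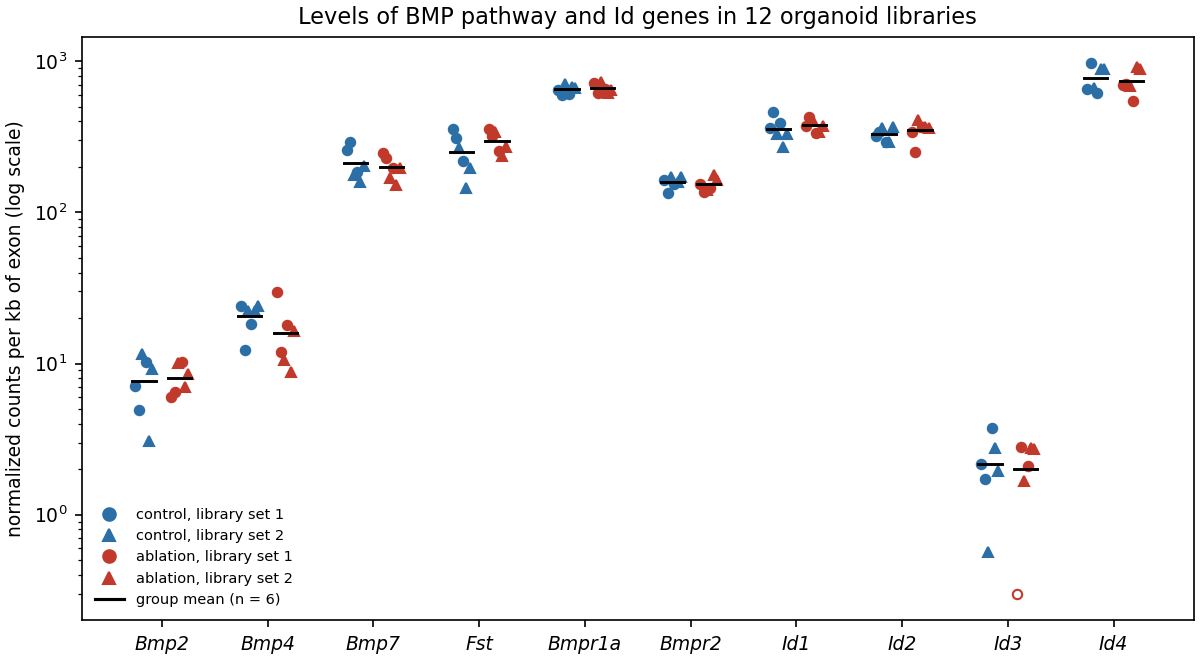
Normalized counts per kilobase of exon on a log axis for the 10 genes, with control libraries in blue and ablation libraries in red, circles for library set 1, triangles for library set 2 and a bar for the mean of 6. Id4 and Bmpr1a sit at the top and Id3 at the bottom, and the open circle near the foot of the axis stands for the 1 library in which Id3 was at 0, which a log axis cannot show.

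Bmp7 was the most abundant of the 3 ligand genes. Per kb it stood at a median of 10.9 times the level of Bmp4 (range 7.06 to 23.9 over the 12 libraries) and 22.6 times that of Bmp2 (15.2 to 60.0). The type I receptor gene Bmpr1a was at a median of 4.21 times the level of Bmpr2 per kb (3.51 to 5.14). Within the Id family, Id4 made up 51.4% of the summed level per kb (43.5% to 61.0%), Id1 25.2% (18.6% to 30.9%) and Id2 23.3% (17.99% to 29.5%). Id3 contributed 0.143%, with at most 0.286% in any library. The share of Id4 was 50.1% ± 4.94 after ablation and 52.7% ± 5.33 in the control (SD, n = 6 dishes).

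Ablation was compared with the control by limma on log2(normalized counts + 1), with condition and library set as factors. In this library set model 0 of 13792 genes had an adjusted p-value under 0.05 (0% of those tested). A raw, unadjusted p-value below 0.05 was found for 1083 (7.85%). The paper, by DESeq2 with condition and batch as factors, did report genes with an adjusted p-value under 0.05, Trp63 among them. On the 9 libraries with recovered reads, edgeR left 0 genes past the threshold and 807 at a raw p-value below 0.05. With the pair in place of the library set (the paired model, or replicate block), limma called 150 genes (1.09%), and 2433 (17.6%) had a raw p-value below 0.05. With plain eBayes in place of the trended, robust variance model, the paired model called 0 genes. Of the 10 genes described here, 9 passed the count minimum, and 0 of these 9 passed the threshold in either model. Fst was the 1 of 9 with a raw p-value below 0.05 in the paired model. The 9 log2 changes had a median of 0.02, with 5 above 0 and 4 below, beside a median of -0.0036 over all genes tested. The labels name no separate animals, so p-values measure only the spread between dishes, which may be technical. In bulk RNA, fewer cells of a kind and less RNA per cell cannot be told apart.

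Fst (ENSMUSG00000021765.9, chromosome 13 from 114452290 to 114458951, minus strand), the follistatin gene, was the 1 member tested whose difference had the same sign in all 6 pairs, by widely varying amounts. It had 1083 to 1629 normalized counts in the ablated dishes (median 1362) against 665 to 1625 in untreated ones (median 1121). The ranges overlapped, with 3 of 6 control dishes below the lowest ablation dish, and in each pair the ablation dish was the higher one. The log2 differences were 0.0033 in pair 1, 0.04 in pair 3, 0.20 in pair 5, 0.34 in pair 4, 0.48 in pair 7 and 0.70 in pair 6. Across the table, 1351 genes (9.8%) changed the same way in all 6 pairs, so a same direction in 6 of 6 pairs alone is common here. The log2 change of Fst was 0.29, with a standard error of 0.169 (adjusted p = 0.703 from limma with the library set as the factor). With the pair as the factor the standard error was 0.0817, the unadjusted p-value 0.00405 and the adjusted p-value 0.107, with a 95% interval from 0.11 to 0.47 on the log2 scale.

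In library set 2, Fst had 1559, 1083 and 1252 counts after ablation in pairs 4, 6 and 7 and 1233, 665 and 900 in the control. The log2 change in this set alone was 0.51 (standard error 0.079, adjusted p = 0.0187 from the paired limma fit), past the threshold together with 0.79% of all genes tested. With plain eBayes, an alternative chosen after seeing the data, the adjusted p-value was 0.332 and 0 genes passed in this set. In library set 1 Fst had 1629, 1473 and 1162 counts after ablation in pairs 1, 3 and 5 and 1625, 1430 and 1010 in the control. The log2 change there was 0.08 (adjusted p = 0.580 from limma), with 0.116% of genes past the threshold. The response in set 2 exceeded that in set 1 by 0.42 on the log2 scale (standard error 0.105, 95% interval 0.20 to 0.65). This difference had a raw p-value of 0.00144 (adjusted p = 0.369 from limma), so it did not pass the threshold, which 1 gene (0.00725%) passed in this test. The set 2 controls are the 3 dishes whose titles carry both the word for ablation and the C of the control titles. Trp63 had 8400, 9773 and 9974 counts in the ablation dishes of these pairs and 6559, 6443 and 7543 in their controls. Whether the word for ablation in these titles or the treatment label is right was not tested.

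Bmp4 (ENSMUSG00000021835.15, chromosome 14 from 46383520 to 46390669, minus strand) was lower after ablation in 5 of 6 pairs. The drop was largest in pairs 4, 6 and 7. In library set 2 it had 23.8, 19.7 and 37.0 counts after ablation in pairs 4, 6 and 7 and 50.3, 50.4 and 53.7 in the control. All 3 ablation dishes lay below all 3 control dishes, and how many of all genes separate in this way was not counted. The log2 change in this set was -0.96 (standard error 0.234, 95% interval -1.48 to -0.45), with an adjusted p-value of 0.0987 from limma that did not pass. In library set 1 it had 67.3, 27.0 and 40.4 counts after ablation in pairs 1, 3 and 5 and 54.0, 27.6 and 41.2 in the control, with a log2 change of 0.08. Over all 12 libraries the log2 change of Bmp4 was -0.44, with an adjusted p-value of 0.717 from limma with the library set and 0.296 with the pair. This value varied with the pairs included, at -0.27 without pair 6 and -0.59 without pair 1. On the 9 libraries with recovered reads, which lack both dishes of pair 4 and ablation dish 3, edgeR gave -0.15. The sets differed in their response by -1.05 (standard error 0.311, unadjusted p = 0.00523 and adjusted p = 0.460 from limma). At 19.7 to 67.3 counts, Bmp4 carries more counting error than the more abundant genes, and its own antisense partner Gm15217 was at 0.

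Id1 (ENSMUSG00000042745.9, chromosome 2 from 152736251 to 152737410, plus strand), a common readout of BMP signalling, had 390 to 497 counts in the ablated dishes (median 435) against 314 to 535 in untreated ones (median 404). The groups overlapped, and the ablation dish was the higher one in 4 of 6 pairs. Its log2 change was 0.09 (95% interval -0.08 to 0.25 in the paired model, adjusted p = 0.594 from limma). All 3 pairs of library set 2 had a positive log2 difference, from 0.19 in pair 7 to 0.33 in pair 6. In library set 1, pair 1 was at 0.05, and pairs 3 and 5 were at -0.11 and -0.22. The sets differed by 0.36 on the log2 scale (standard error 0.121, unadjusted p = 0.0112 and adjusted p = 0.544 from limma). In all, 3 of the 9 genes, Fst, Bmp4 and Id1, had a raw p-value below 0.05 in the test of different responses, against 7.88% of all genes tested. The role of passage in these differences between the sets was not tested.

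**Figure D2:**
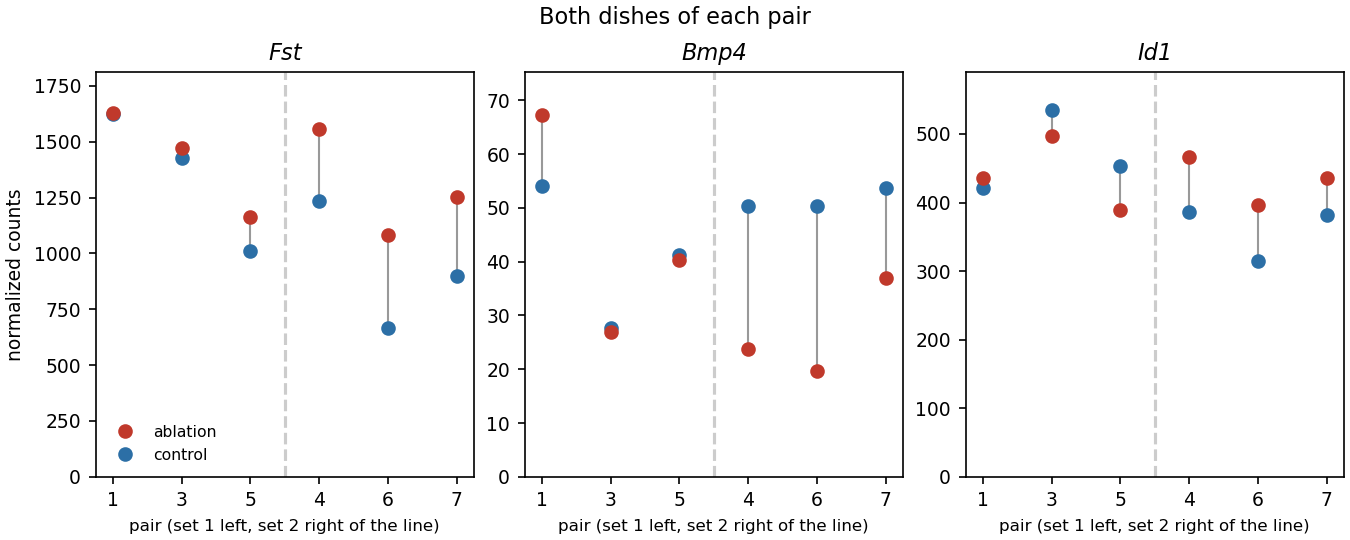
Normalized counts of Fst, Bmp4 and Id1 in the ablation dish (red) and the control dish (blue) of each pair, joined by a line, with library set 1 left and library set 2 right of the dashed line. In pairs 4, 6 and 7 the red points of Fst and Id1 lie above the blue ones and those of Bmp4 below, while in pairs 1, 3 and 5 the points of Fst and Bmp4 lie closer together.

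For each of the other members tested, the 95% interval of the paired model included 0. Bmp2 (ENSMUSG00000027358.6, chromosome 2 from 133552159 to 133562885), a ligand gene, had 21.4 to 36.6 counts in the ablated dishes (median 27.4) against 10.9 to 41.3 in untreated ones (median 28.9). Its log2 change was 0.16 with a wide 95% interval of -0.27 to 0.60 in the paired model, and pair 6 alone gave 1.11. Bmp7 (ENSMUSG00000008999.7, chromosome 2 from 172868012 to 172940321), the main ligand gene of the list, had 614 to 998 counts in the ablated dishes (median 793) against 636 to 1180 in untreated ones (median 779). It was lower after ablation in 5 of 6 pairs, with a log2 change of -0.08 (95% interval -0.20 to 0.04, adjusted p = 0.493 from limma in the paired model).

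The receptor genes gave the narrowest intervals. Bmpr1a (ENSMUSG00000021796.15, chromosome 14 from 34410734 to 34503341) had 4211 ± 297 normalized counts in ablation dishes and 4146 ± 272 in control dishes (SD, n = 6 dishes). Its log2 change was 0.02, with a 95% interval from -0.07 to 0.11 in the paired model. Bmpr2 (ENSMUSG00000067336.6, chromosome 1 from 59763400 to 59879014), which pairs with several type I receptors, had 2754 ± 279.7 counts in ablation dishes and 2860.5 ± 249 in control dishes. Its log2 change was -0.06, with a 95% interval from -0.16 to 0.05.

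Id2 (ENSMUSG00000020644.9, chromosome 12 from 25093799 to 25097140) had 607 to 992 counts in the ablated dishes (median 888) against 717 to 891 in untreated ones (median 809). The lowest and the highest of the 12 libraries were both ablation dishes, and the log2 change was 0.07 (95% interval -0.12 to 0.27 in the paired model). Id4 (ENSMUSG00000021379.2, chromosome 13 from 48261228 to 48266026) had 2088 to 3548 counts in the ablated dishes (median 2695) against 2388 to 3735 in untreated ones (median 2975). Its log2 change was -0.07 (95% interval -0.22 to 0.07), and pair 3 alone gave -0.46. Its antisense neighbours A330033J07Rik and Gm49291 had means of 0.567 and 1.46 counts.

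Id3 (ENSMUSG00000007872.3, chromosome 4 from 136143497 to 136145755) stayed under the count minimum. It had 0 to 5.00 counts in the ablated dishes (median 4.31) against 1.01 to 6.70 in untreated ones (median 3.68). The exact permutation test over the 12 libraries gave p = 0.840 (two-sided, smallest possible 0.00216), and the exact sign-flip test over the 6 pairs gave p = 0.844 (smallest possible 0.0312). No change in Id3 was detected at these counts.

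**Figure D3:**
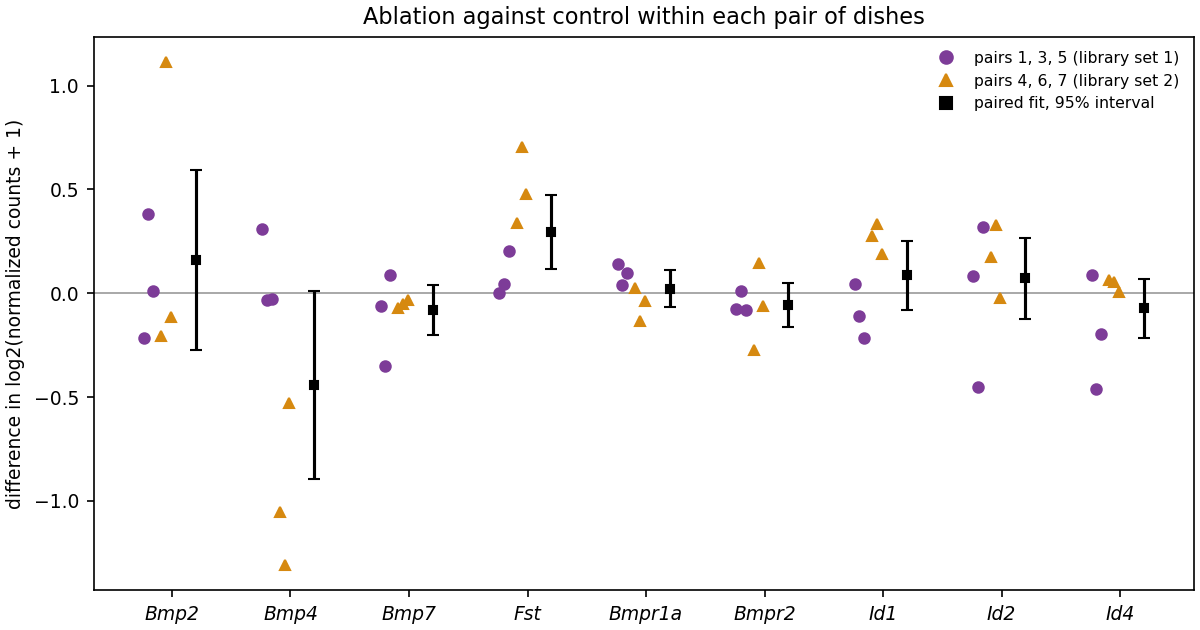
Difference in log2(normalized counts + 1) between the ablation and the control dish of each pair for the 9 genes tested, with pairs of library set 1 as purple circles, pairs of library set 2 as orange triangles and the paired estimate with its 95% interval as black squares. The interval of Fst, from 0.11 to 0.47, is the 1 that does not include 0, and the pairs of Bmp4 spread from -1.31 to 0.31.

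The dishes were also compared by culture day. Id4 had 2088 to 2676 normalized counts in the 6 libraries of day 14 or 15 (median 2529) and 2715 to 3735 in the 6 of day 18, 19 or 20 (median 3416). Early and late libraries did not overlap, in both treatment groups and both library sets, which held for 127 of all genes tested (0.921%). Over pair means, the late pairs 3, 6 and 7 exceeded the early pairs 1, 4 and 5 by 0.40 on the log2 scale (standard error 0.0776, unadjusted p = 0.00120). The adjusted p-value from limma was 0.758, so the threshold was not passed, while 1 gene (0.00725%) passed it and 895 (6.49%) had a raw p-value below 0.05. The exact permutation test over 3 against 3 pair means gave p = 0.1, the smallest it can give. No other member had a raw p-value below 0.05 here. The late minus early differences were 0.06 for Id1, -0.16 for Id2 and -0.62 for Bmp2 on the log2 scale, with adjusted p-values of 0.963, 0.778 and 0.782 from limma. Passage changed along with culture day in part of the pairs, and its role in the Id4 values was not tested.

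**Figure D4:**
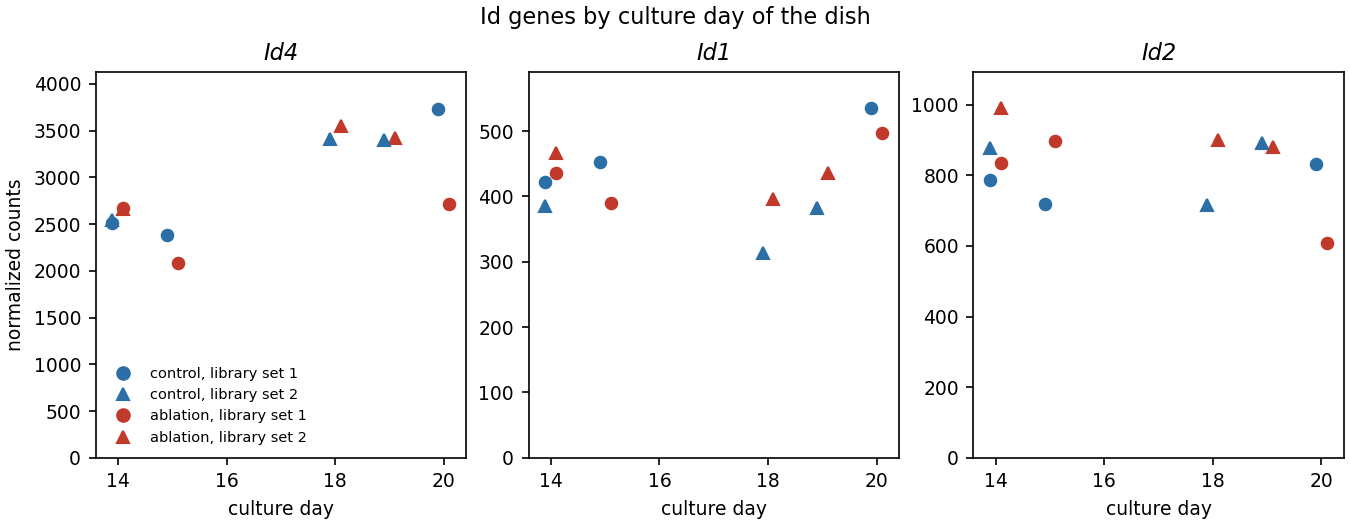
Normalized counts of Id4, Id1 and Id2 in each library against the culture day of its dish, in blue for control and red for ablation, with circles for library set 1 and triangles for library set 2. For Id4, the 6 libraries up to day 15 all lie below the 6 from day 18 on, whereas the values of Id1 and Id2 overlap between the days.

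Levels were also compared between the library sets. Bmp7 averaged 947 counts in the 6 libraries of set 1 and 706 in those of set 2. In the fit on pair means that also held culture day, its log2 difference was -0.46 (standard error 0.151, unadjusted p = 0.0196 and adjusted p = 0.445 from limma). Id2 was 0.23 higher in set 2 on the log2 scale in that fit (unadjusted p = 0.0221, adjusted p = 0.445 from limma). Neither passed the threshold, and limma left 0 genes of the table past it (0%). A raw p-value below 0.05 was found for 1501 of 13792 genes tested and for 2 of the 9 members tested. Passage differed in part between the sets, and its role in these levels was not tested.

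The wider pathway was read from a list of 56 other genes, of which 29 passed the count minimum. In these organoids the tested genes were 4 of 13 genes listed as ligands, 8 of 11 receptor and co-receptor genes and 5 of 14 antagonist genes. They also held 7 of 8 genes for Smads and their ligases, 2 of 7 other target genes and all 3 genes for partners of Id proteins. Of the 4 listed as ligands, Bmp6 encodes a BMP ligand, Bmp1 a protease, and Inhba and Inhbb subunits of activins. After ablation, 11 of the 29 tested genes had a log2 change above 0 and 18 below, with a median of -0.04. In the library set model 4 of 29 had a raw p-value below 0.05, beside 7.85% of all genes tested, and in the paired model 6 of 29 had one, beside 17.6%. The threshold was passed by 0 of 29 in both.

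Among the ligand genes, Bmp6 was the most abundant, with 1556 ± 149 normalized counts after ablation and 1537 ± 128 in the control (SD, n = 6 dishes). Its mean of 397 counts per kb lay above that of Bmp7. Bmp5 varied between 0 and 80.5 counts and did not pass the minimum. Neo1, a co-receptor of repulsive guidance molecules, had the most normalized counts of the receptor genes in this wider list, without scaling for length. It had 2076 ± 163 counts after ablation and 2099 ± 99.0 in the control. Per kb of exon Neo1 stood at 239.5, below Acvr1b at 449.9, Acvr2a at 351.9 and Acvr1 at 274.9. The type II receptor gene Acvr2a was higher after ablation in 6 of 6 pairs, with a log2 change of 0.10 (adjusted p = 0.180 from limma in the paired model). Rgma, a BMP co-receptor gene, was lower in 6 of 6 pairs, with a log2 change of -0.22 (adjusted p = 0.154). Such a same direction in all 6 pairs, given below for Fstl3, Smad1 and Dlx5 as well, was seen in 9.8% of all genes tested.

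The antagonist genes were led by Twsg1, a modulator of chordin, with 4513 ± 419 counts after ablation and 4647 ± 426 in the control. The noggin gene Nog averaged 0.494 counts after ablation and 0.979 in the control, and Grem1, Chrdl2, Sost and Cer1 were at 0 in all libraries. Sostdc1 and Fstl3, which encode secreted antagonists, were 2 of the 3 tested genes of the list with the widest change. Fstl3, a relative of Fst, had 101 to 146 counts after ablation and 126 to 161 in the control and was lower in 6 of 6 pairs. Its log2 change was -0.28 (standard error 0.0919, adjusted p = 0.148 from limma in the paired model), opposite in sign to that of Fst. Sostdc1 had a log2 change of -0.36 and was lower in 5 of 6 pairs (adjusted p-value 0.299 in that model).

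Of the Smads, which carry the signal, Smad4 was the most abundant at 3271 ± 99.1 counts after ablation and 3405 ± 143 in the control. Smad1 had 884 ± 57.7 counts after ablation and 807 ± 46.2 in the control and lay above the control dish in 6 of 6 pairs (log2 change 0.13, adjusted p-value 0.160 from limma in the paired model). Smad9 was near 0. Smad6 and Smad7 had means of 251 and 476 counts over the 12 libraries. Of the genes listed as other target genes, the 2 tested were low. Bambi, a decoy receptor gene induced by the pathway, had 52.6 ± 10.6 counts after ablation and 53.7 ± 5.04 in the control. Dlx5, a homeobox gene, had 12.7 to 36.6 counts after ablation and 19.9 to 38.6 in the control. It was lower after ablation in 6 of 6 pairs, with a log2 change of -0.36 (adjusted p = 0.343 from limma in the paired model). Tcf12, the partner gene with the most counts though not per kb, which encodes a basic helix-loop-helix partner of Id proteins, had 7105 ± 259 counts after ablation and 6536 ± 414 in the control. Its ablation dish was the higher one in 5 of 6 pairs, at a log2 change of 0.12 (adjusted p = 0.139 from limma in the paired model). Acvr1, Acvr1b, Acvr2a, Rgma, Smad1, Smad6 and Smad7, and the genes given at or near 0, were named after their values were seen.

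**Figure D5:**
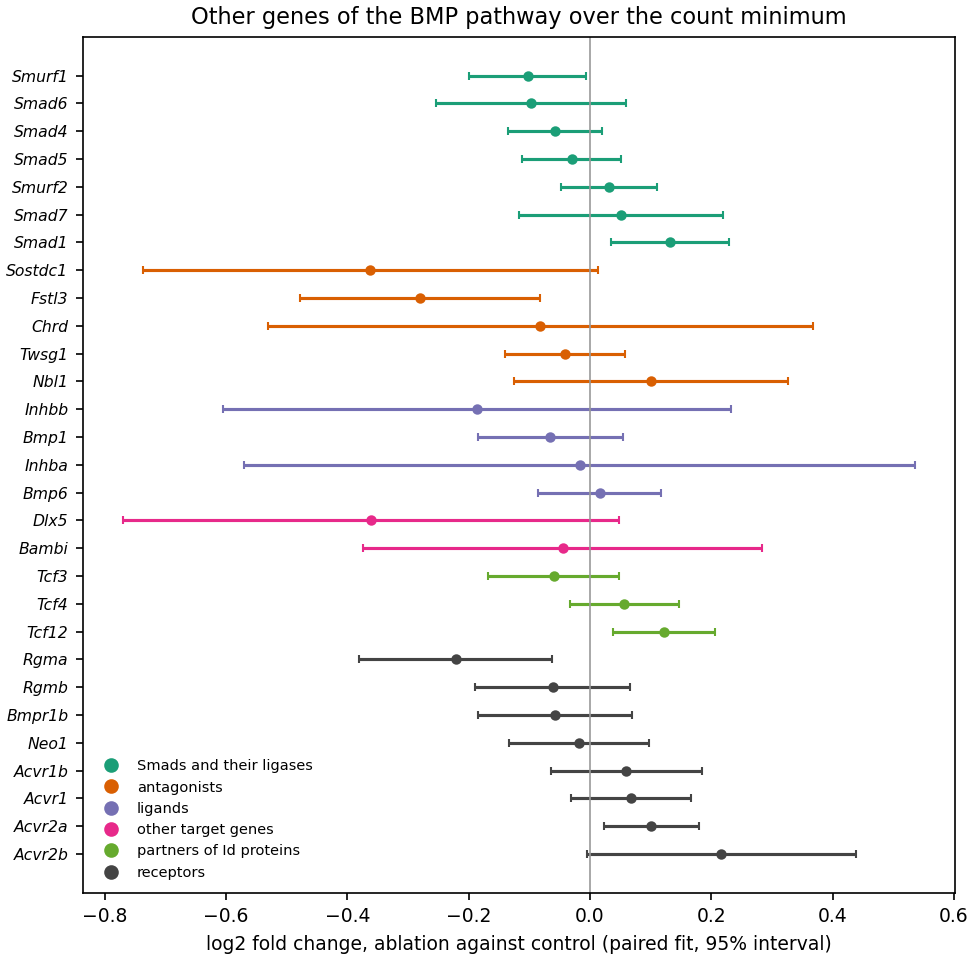
Log2 change of the 29 tested genes of the wider list, ablation against control, with the 95% interval of the paired limma fit and colours for the role of the gene. Sostdc1, Dlx5 and Fstl3 lie furthest from 0, at -0.36, -0.36 and -0.28, and 6 intervals do not include 0, without a gene past the threshold after adjustment.

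The genes whose profile over the 12 libraries was most like that of Id1 were Diexf (Pearson r = 0.951), Mrpl54 (r = 0.925) and Epb41l2 (r = 0.922). For Bmp4 they were Selenon (r = 0.949), Dcaf5 (r = 0.938) and Rsu1 (r = 0.924). These are the extremes of 13792 genes over 12 libraries that share pairs and library sets, and they are given as a description. Among the members, Id1 was most alike to Fst (r = 0.745) and least to Bmpr2 (r = -0.66), and Bmp4 had r = 0.437 with Bmpr1a and r = -0.447 with Id1.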

How the data were processed

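The table used here holds signal values, the normalized counts that the authors deposited for 12 libraries. The authors prepared stranded poly(A) libraries, processed reads with an nf-core pipeline on the GENCODE annotation of GRCm38.p6, and divided the counts by DESeq2 size factors. Whether counting used strand is not given in the sources used here. Columns of the authors' own comparison (fold changes, p-values) were not used. Values of 9 libraries were whole multiples of a step (tolerance 0.1 of a read), which gave reads for edgeR. In the other 3 (ablation dishes 3 and 4 and control dish 4) the step was too near 1 to be accepted.

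A gene entered the tests when 6 or more libraries held 10 or more normalized counts (13792 genes of 55401 listed, 28534 with any count). The tests used limma 3.58.1 in R 4.3.3 (trend and robust eBayes, pseudocount 1, Benjamini-Hochberg adjustment over all genes tested, threshold 0.05). The alternative tool was edgeR 4.0.16. The authors' model names a batch without defining it, and it was taken as the library set. Groups came from the treatment labels. Same-numbered dishes share passage, culture day and date, and their deviations from group means correlated with r from 0.205 to 0.618 across genes, so the pairs were used as a replicate block. Different responses in the library sets were tested by an interaction with the pair as a term, and culture day on pair means with the library set, whose own term was read after its values were seen. Fold changes on the log2(value + 1) scale understate changes of low genes. Depth limits Id3, Bmp2 and Bmp4 most. Scripts were tested on simulated data.

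All members were named. Other pathway genes were named if past the threshold, if among the 3 with the largest absolute change, or if the most abundant of their role, and the 3 genes most like Id1 and Bmp4 by Pearson r were named as well. The members and lists were chosen with earlier results of these data known. Other scalings, filters, pseudocounts and variance models, and fits leaving out each pair, were tried as alternatives. Promoters came from a RefSeq table in which 6 of 10 members matched.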

Additional observations from a re-analysis of the deposited data

How the results depend on the processing

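Of the values of single members, 289 kept their direction and their side of the threshold under the alternatives, 17 reversed and 1 passed the threshold in addition. In the replicate block, limma called 150 genes, or 356 with all genes with any count 168 with quantile normalization and 0 with plain eBayes. The library set model called 3 with all genes with any count. Within library set 1 alone 16 genes were called, and within library set 2 alone 109 with 1 member, Fst, at a log2 fold change of 0.51. With plain eBayes, chosen after seeing the data, both sets alone called 0 genes, and Fst in set 2 had an adjusted p-value of 0.332. Reversed values were -0.0925 for Id1, -0.016 for Id2 and 0.0831 for Bmp4 in library set 1 alone, 0.0421 for Id4 and -0.0477 for Bmpr1a in library set 2 alone (each also with plain eBayes), and 0.0144 for Bmpr2 by edgeR on 9 libraries. Leaving out each pair in turn, 0 genes were called in the library set model and 8 (without pair 4), 77 (pair 5), 90 (pair 3), 106 (pair 6), 140 (pair 7) or 176 (pair 1) in the replicate block. Log2 fold changes then ranged from -0.001 (without pair 1) to 0.0533 for Bmpr1a, from -0.11 to 0.0046 (without pair 3) for Id4, and from -0.0291 (without pair 6) to 0.24 for Bmp2. They kept their sign but moved by over 1.5 times for Bmp4 (-0.27 without pair 6), Bmp7 (-0.02 without pair 3), Bmpr2 (-0.01 without pair 4, -0.10 without pair 6), Id1 (0.04 without pair 6, 0.05 without pair 4, 0.15 without pair 5) and Id2 (0.18 without pair 3, 0.02 without pair 5 or pair 6). For Fst they ran from 0.21 to 0.35. For different responses in the library sets, 53 genes were called with all genes with any count, 0 with plain eBayes, 0 with no replicate block, and 0 to 7 (without pair 3) with a pair left out. For culture day, 12 were called with all genes with any count, 0 with plain eBayes, 0 with no library set, and 0 to 3 (without pair 1) with a pair left out. The cause of these changes was not tested.

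Adjusted p-values over the alternatives ran from 0.0187 to 0.934 for Fst and from 0.0987 to 0.956 for Bmp4, and for Id4 by culture day from 0.0899 to 0.999. Other scalings kept the median log2 fold change of all genes between -0.0058 and -0.0032. Bmp2 and Bmp4 gave no value at the minimum of 50 counts. Low counts limit Bmp2, Bmp4 and above all Id3, and 3 pairs per library set limit every within-set value. The controls of library set 2 carry the word for ablation in their titles, beside the C of the other control titles. The result for Fst in that set rests on these controls.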
